A study of Mus musculus with 8 samples.

Results

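Sucnr1, the gene of the succinate receptor, lies on mouse chromosome 3 in a run of genes for P2Y-type receptors. The 6 receptor genes described here are Sucnr1, P2ry1, P2ry12, P2ry13, P2ry14 and Gpr171, out of 18820 genes measured. The genes were chosen by their position beside Sucnr1 on the chromosome, and each was represented by the probe set with the highest mean over all 8 arrays among those annotated to exactly 1 gene symbol. All 6 had a single such probe set, so brightness decided nothing among them. Total RNA came from epididymal white fat, a visceral depot attached to the epididymis, of male C57BL/6 mice, and each mouse had its own array. The 8 mice were 4 Sucnr1-/- mice and 4 wild-type (WT) littermates bred by crossing heterozygous parents. Both genotypes received a low-fat diet (LFD) for 16 weeks from an age of 8 to 10 weeks and were killed at 24 to 26 weeks. The paper gives a wider range of starting ages for the mice of its diet experiment. In the Sucnr1-/- mice, which lack the receptor in all cells, a cassette holding lacZ and a neomycin resistance gene replaces a large part of exon 2, the exon with most of the receptor's coding sequence. The array annotation does not say which part of the transcript the Sucnr1 probe set reads, so it may hold probes outside the replaced part.

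P2Y-type receptors are G protein-coupled receptors on the cell surface, and many are activated by nucleotides that leave stressed or activated cells. SUCNR1 is a relative of this family whose ligand is the tricarboxylic acid cycle intermediate succinate. P2RY1, P2RY12 and P2RY13 respond to ADP, P2RY1 mainly through Gq and the other two through Gi. P2RY14 responds to UDP-glucose and related UDP-sugars, and GPR171 belongs to the same branch. Adipose tissue holds adipocytes, stromal cells, vessels and leucocytes, and receptors of this family are found on several of these. The comparison asks which of the linked receptor genes differed in fat of mice that lack the succinate receptor.

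The RefSeq promoter table (GRCm38.p6) matched 5 of the 6 genes by symbol, all but Gpr171. The 250 bases before the first base of the transcript are printed for the pair of genes whose values did not overlap between the genotypes, Sucnr1 (chr3:60081619-60081868, plus strand) and P2ry14 (chr3:59153493-59153742, minus strand, the farthest upstream of 4 annotated starts). Capitals mark the letters searched for on both strands, an AP-1 motif (TGANTCA) and a PU box (GAGGAA, or its complement where it lies on the other strand), together with any of the other motifs named below.
Sucnr1: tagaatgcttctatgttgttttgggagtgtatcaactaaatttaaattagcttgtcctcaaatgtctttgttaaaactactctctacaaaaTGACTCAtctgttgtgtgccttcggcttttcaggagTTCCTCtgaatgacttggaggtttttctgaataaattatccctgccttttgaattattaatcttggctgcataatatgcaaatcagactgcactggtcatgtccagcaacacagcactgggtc
P2ry14: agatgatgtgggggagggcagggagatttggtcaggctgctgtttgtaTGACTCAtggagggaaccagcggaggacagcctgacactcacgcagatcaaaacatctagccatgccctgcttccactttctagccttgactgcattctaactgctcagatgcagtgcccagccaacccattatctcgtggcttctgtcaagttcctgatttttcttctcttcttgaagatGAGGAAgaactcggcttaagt
Both stretches held an AP-1 motif, which occurred in 6.75% of 32851 promoters of the same length, and a PU box, which occurred in 23.25%. P2ry13 also held a PU box, P2ry12 held a C/EBP motif (TTGCNNAA, in 9.56% of promoters), and a TATA box (TATAAA, in 12.37%) was found in none of the 5. A CCAAT box (in 33.85% of promoters) and a GC box (GGGCGG, in 32.74%) were each present in 1 of the 5. The upstream stretch of P2ry1 stood apart in base composition, with 70.8% G and C and 20 CG pairs. Sucnr1 had 38.0% and 1 CG pair, P2ry12 41.6% and 3, and P2ry13 41.6% and 5, against medians of 52.4% and 6 over all promoters. A match gives letters only and does not show that a factor binds there. The printed pair was chosen by its values, Sucnr1 is the targeted gene, and several motifs were searched. The shares are therefore no test of the match, and a common regulation of the pair was not tested.

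Sucnr1 had log2 expression values of 6.02, 6.05, 5.41 and 7.11 in Sucnr1-/- mice 1 to 4, against 8.68, 8.97, 9.38 and 9.78 in WT mice 1 to 4. Every Sucnr1-/- mouse lay below every WT mouse, so no array went against its genotype label. The mean was 6.15 ± 0.71 in Sucnr1-/- mice and 9.20 ± 0.48 in WT mice (SD, n = 4 each), a log2 difference of -3.05 (SE 0.36, 95% interval -3.87 to -2.24) that left 0.120 of the WT value. Sucnr1 ranked first of all 18820 genes by p and by the size of its decline. Adjusted over all genes, it missed the threshold (limma, adjusted p = 0.321), and the exact two-sided permutation p over mice was 0.0286, the smallest that 4 mice against 4 can give. Mouse 4 had the highest value of the Sucnr1-/- group. Without that array the difference was -3.38 with an adjusted p of 0.0556 (limma), and leaving out any other mouse gave -3.23 to -2.81. The array annotation lists 990 olfactory receptor genes, which fat is not thought to use and which serve as a rough guide to the signal of silent genes. The 95th percentile of their log2 values was 5.47, and Sucnr1 was above it in 3 of 4 Sucnr1-/- mice and in 4 of 4 WT mice. The other 5 receptor genes were above it in all 8 mice.

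P2ry14, the receptor for UDP-sugars, was the other member of the cluster whose genotypes did not overlap. Its log2 values were 7.27, 7.19, 7.48 and 7.53 in Sucnr1-/- mice, against 8.17, 7.59, 8.78 and 7.97 in WT mice. The highest Sucnr1-/- mouse and the lowest WT mouse lay close together, and the WT mice were spread more widely. The mean was 7.37 ± 0.16 in Sucnr1-/- mice and 8.13 ± 0.50 in WT mice (SD, n = 4 each). The log2 difference was -0.76 (SE 0.22, 95% interval -1.27 to -0.25), which corresponds to 0.591 of the WT value. Over all genes it missed the threshold (limma, adjusted p = 0.712, unadjusted p = 0.00824, exact permutation p = 0.0286). Its rank by p was 178, and the absolute difference was at least as large in 95 genes. The difference was -0.54 without WT mouse 3, which had the highest value, and -0.94 without WT mouse 2, which had the lowest of the WT mice.

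**Figure D1:**
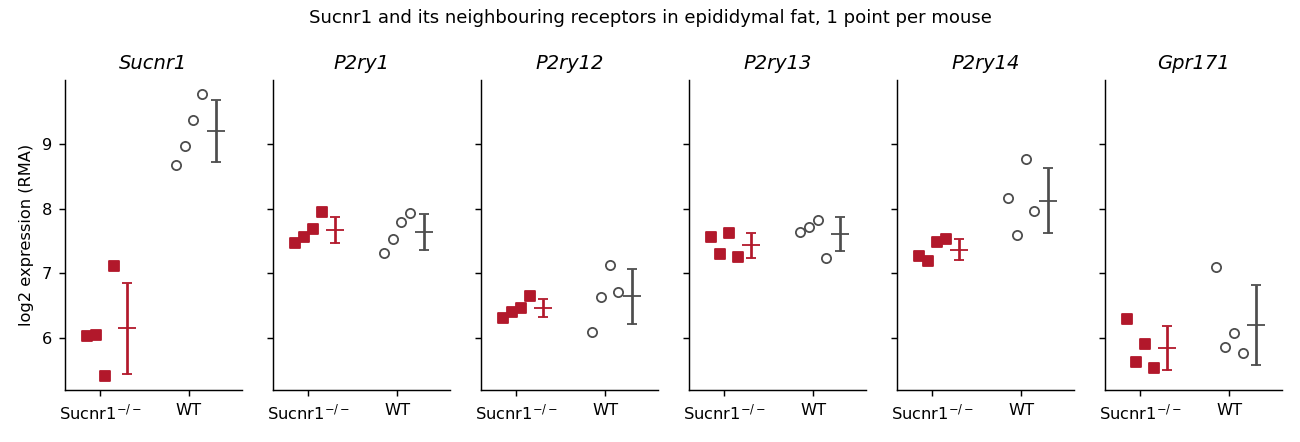
Log2 expression (RMA, vertical axis) of the 6 receptor genes in epididymal fat, 1 point per mouse, with Sucnr1-/- mice as red squares on the left and WT mice as grey circles on the right of each panel. Bars beside the points give the mean and SD of the 4 mice. Red and grey points are apart for Sucnr1 and P2ry14, and the genotypes overlap in the other 4 panels. Levels should not be compared between panels, since each gene has its own probes.

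The ADP receptors did not separate by genotype. P2ry1, the Gq-coupled ADP receptor that starts shape change in platelets, had log2 values of 7.48, 7.57, 7.69 and 7.95 in Sucnr1-/- mice, against 7.31, 7.53, 7.80 and 7.93 in WT mice. The values covered the same range in both genotypes, and the difference was 0.03 (SE 0.15, 95% interval -0.32 to 0.37, limma, adjusted p = 0.967). The sign turned to -0.08 without WT mouse 1, to -0.07 without Sucnr1-/- mouse 4 and to -0.01 without WT mouse 2, and also with array weights and with arrays centred on their median.

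P2ry12, the Gi-coupled ADP receptor that is the target of clopidogrel-type drugs in platelets, had log2 values of 6.31, 6.41, 6.47 and 6.65 in Sucnr1-/- mice. In WT mice the values were 6.09, 6.64, 7.14 and 6.71, so that the WT group held both the lowest and the highest mouse. The difference was -0.18 (SE 0.20, 95% interval -0.63 to 0.26, limma, adjusted p = 0.814). It was -0.02 without WT mouse 3 and -0.37 without WT mouse 1.

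P2ry13, the other Gi-coupled ADP receptor, had log2 values of 7.57, 7.29, 7.63 and 7.25 in Sucnr1-/- mice, against 7.64, 7.72, 7.83 and 7.23 in WT mice. The lowest mouse of all was WT mouse 4, and the groups overlapped. The difference was -0.17 (SE 0.14, 95% interval -0.50 to 0.15, limma, adjusted p = 0.778), with values of -0.29 without WT mouse 4 and -0.10 without WT mouse 3.

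Gpr171, a receptor gene best known from lymphocytes, had log2 values of 6.30, 5.63, 5.90 and 5.54 in Sucnr1-/- mice, against 7.10, 5.86, 6.07 and 5.77 in WT mice. WT mouse 1 stood above the other 7 mice, and mouse 1 was also the highest of the Sucnr1-/- group. The difference was -0.36 (SE 0.30, 95% interval -1.03 to 0.32, limma, adjusted p = 0.775) and shrank to -0.06 without WT mouse 1.

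Of the 6 receptor genes, 5 averaged lower in Sucnr1-/- mice and 1 averaged higher, with a median log2 difference of -0.27 over the 6 and -0.18 over the 5 other than Sucnr1. Over all 18820 genes the median difference was 0.01, and 46.8% of genes had a lower mean in Sucnr1-/- mice. None of the 6 passed the limma test at an adjusted p under 0.05, as was the case for 0% of all genes. At an unadjusted p under 0.05, 2 of the 6 were lower in Sucnr1-/- mice by limma and the same number passed by the methods' t-test, whereas 3.36% of all genes were lower and 3.46% higher at that level by limma. The same count of 2 had all Sucnr1-/- mice below all WT mice, which held for 1.87% of all genes. One of the 2 is the targeted gene itself. The remaining count of 1 in 5 rests on P2ry14 alone.

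The order of the genes on the chromosome was taken from RefSeq. Of 33 RefSeq genes from Med12l to P2ry1, 17 of them protein-coding, 13 were measured, the 6 receptors and 7 others. Gpr171, P2ry14, P2ry13 and P2ry12 lie within the span of Med12l, which encodes a subunit of the Mediator complex. Sucnr1 lies farther along between Aadac and Mbnl1, and P2ry1 follows Mbnl1. Med12l itself had log2 values between 7.64 and 7.89 in Sucnr1-/- mice and between 7.48 and 7.99 in WT mice, a difference of -0.01 (SE 0.13). F630111L10Rik, a long non-coding RNA that lies between P2ry14 and P2ry13, differed by -0.17 (SE 0.13). Of the measured genes from Med12l to P2ry12, P2ry14 alone had no overlap between the genotypes. Over all genes, 1.87% had all Sucnr1-/- mice below all WT mice.

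Of the genes that flank Sucnr1, Mbnl1, a regulator of splicing, differed by -0.05 (SE 0.06) and Aadac, an arylacetamide deacetylase, by -0.59 (SE 0.58). The Aadac value rested on WT mouse 4, at 6.98 while the other WT mice were between 4.21 and 4.33. Aadac was below the guide of 5.47 in the other 7 mice. Aadacl2, between 3.88 and 4.12, and Aadacl2fm1, between 3.20 and 3.55, were below it in all 8 mice, so no change could be seen in these genes. Igsf10, an immunoglobulin superfamily gene, had values from 7.68 to 8.04 in Sucnr1-/- mice and from 7.97 to 8.25 in WT mice, a difference of -0.22 (SE 0.10). Among the 7 neighbours 5 had a lower mean in Sucnr1-/- mice, with a median of -0.05, these dim genes included, and none passed over all genes (limma, smallest adjusted p = 0.719). For the genes of this stretch, an effect of the replaced DNA and an effect of the lost receptor cannot be told apart in this line.

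**Figure D2:**
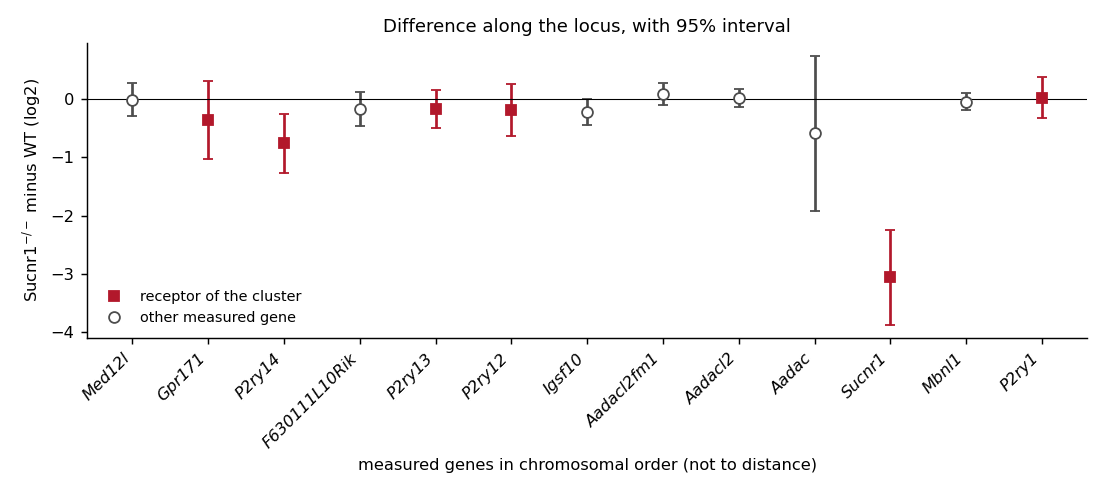
Log2 difference, Sucnr1-/- minus WT (vertical axis), of the 13 measured genes in their chromosomal order from Med12l to P2ry1, with 95% intervals from limma (n = 4 each). Red squares are the 6 receptors and open circles the 7 other genes. Sucnr1 lies at -3.05 and P2ry14 at -0.76, the interval of each of the other 4 receptors includes 0, and spacing does not show distance.

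Receptors of the same family outside the cluster were described by a list of 20 P2Y receptors and relatives, of which 17 were measured. In Sucnr1-/- mice 13 of them averaged lower and 4 higher, with a median log2 difference of -0.29. None passed over all genes (limma, smallest adjusted p = 0.712), and at an unadjusted p under 0.05 there were 3 lower and 1 higher, against 3.36% and 3.46% of all genes. P2ry6, the receptor for UDP, had log2 values of 9.57, 9.64, 9.64 and 9.35 in Sucnr1-/- mice and 10.2, 9.71, 10.0 and 9.65 in WT mice. The genotypes touched without overlap, with a difference of -0.36 (SE 0.13). P2ry10b, a relative of a lysophosphatidylserine receptor, differed by -0.61 (SE 0.24) with overlap between the groups. F2r, a thrombin receptor, differed by -0.29 (SE 0.12). The 1 higher gene was Oxgr1, the receptor for oxoglutarate, which lay between 4.32 and 4.63 in all mice, within the range of the silent olfactory genes, so that its difference of 0.15 (SE 0.07) cannot be read as a change of the receptor. P2ry4, Gpr82 and Gpr174 were within that range in all mice too. P2ry2, which responds to ATP and UTP, differed by -0.32 (SE 0.30). The 5 receptors of the cluster other than Sucnr1 had a median of -0.18.

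**Figure D3:**
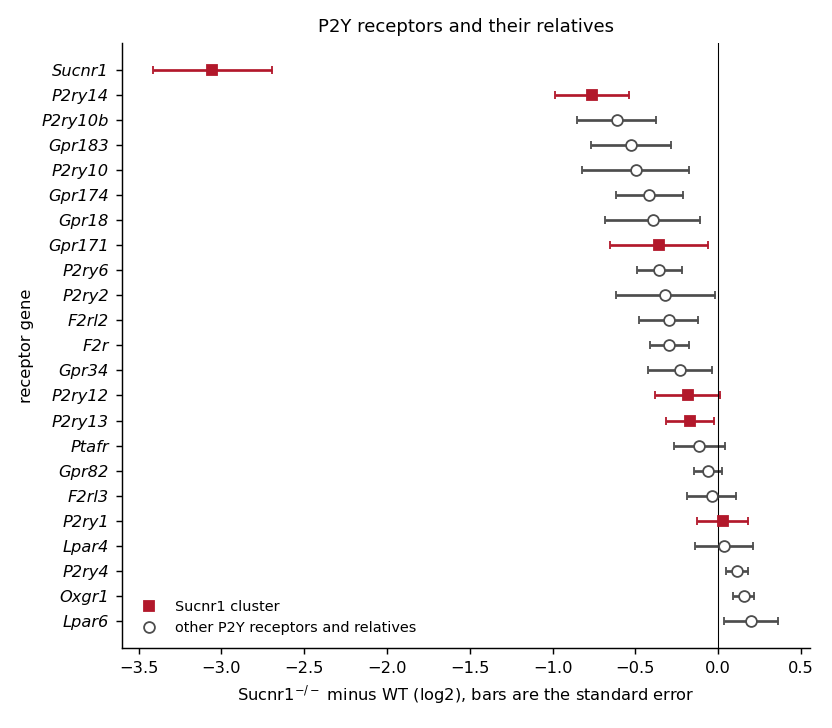
Log2 difference, Sucnr1-/- minus WT (horizontal axis), of the 6 receptors of the cluster (red squares) and the 17 other P2Y receptors and relatives (open circles), ordered by size, with standard errors from limma. P2ry14, at -0.76, is next after Sucnr1, and P2ry10b, at -0.61, follows it. P2ry1 lies among the 5 receptors with a difference above 0.

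None of the measured genes that supply, remove or transmit the signals of these receptors passed over all genes (limma, smallest adjusted p = 0.712). Of 7 measured P2X channels, the ATP-gated ion channels, 3 averaged lower and 4 higher in Sucnr1-/- mice (median 0.04). P2rx6 had values from 6.56 to 6.98 in Sucnr1-/- mice and from 6.32 to 6.56 in WT mice, with no overlap and a difference of 0.22 (SE 0.11). P2rx2, between 4.31 and 4.69, and P2rx3, between 4.86 and 5.31, were in the range of silent genes in all mice. Both are among the 4 with a higher mean. Without Sucnr1-/- mouse 4 the median of the channels was -0.10. Of 12 measured genes of nucleotide release, nucleotide breakdown and adenosine handling, none of them an adenosine receptor, 8 were lower and 4 higher in mean (median -0.08). Entpd8, among the 8, was in the range of silent genes in all mice (4.36 to 4.83). Slc29a1, which carries adenosine across the membrane, differed by -0.24 (SE 0.10), and Panx1, a channel through which ATP leaves cells, by -0.19 (SE 0.09). For the ligands of P2RY14, 8 genes of UDP-glucose and UDP-galactose metabolism were measured, of which 4 were lower and 4 higher in mean (median 0.01). Uggt1, which transfers glucose from UDP-glucose to misfolded glycoproteins, had values from 9.59 to 9.69 in Sucnr1-/- mice and from 9.71 to 9.76 in WT mice, a difference of -0.11 (SE 0.05). Gys2, a glycogen synthase, differed by 0.42 (SE 0.29).

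Of 24 measured G proteins, effectors and regulators of G protein-coupled receptors, 16 had a lower and 8 a higher mean in Sucnr1-/- mice (median -0.03). At an unadjusted p under 0.05 there were 3 lower and 1 higher, against 3.36% and 3.46% of all genes, and 0 passed over all genes. Plcb2, a phospholipase C that acts below G proteins in blood cells, had log2 values of 6.33, 5.90, 5.80 and 6.10 in Sucnr1-/- mice and 6.69, 6.43, 6.76 and 6.41 in WT mice. The genotypes did not overlap, and the difference was -0.54 (SE 0.13, limma, adjusted p = 0.712). Rgs2, which ends signalling through Gq, had values from 8.62 to 9.15 in Sucnr1-/- mice and from 8.31 to 8.75 in WT mice, a difference of 0.43 (SE 0.14, adjusted p = 0.712). Neither passed over all genes.

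Marker lists of cell types that the fat pad can hold were set beside the receptors, because in whole tissue fewer cells of a type and less RNA per cell cannot be told apart. Of 13 macrophage markers 11 had a lower mean in Sucnr1-/- mice (median -0.24), and the mean of the list ran from 10.2 to 10.5 in Sucnr1-/- mice and from 10.4 to 10.8 in WT mice. At an unadjusted p under 0.05, 4 macrophage markers were lower and 1 was higher, against 3.36% and 3.46% of all genes. The lower ones were Itgam (-0.63, SE 0.26), Adgre1 (-0.50, SE 0.15), Cd68 (-0.49, SE 0.15) and Mrc1 (-0.42, SE 0.17). The higher one was Mertk, a receptor for the uptake of dying cells, at 0.44 (SE 0.12, chosen after its value was seen). All 8 mast cell markers had a lower mean (median -0.33), 5 of them at an unadjusted p under 0.05, where 3.36% of all genes were lower. Of the 8, 2 were in the range of silent genes in all mice, and 1 of these, Fcer1a (4.56 to 5.21), was among the 5. The mast cell mean ran from 6.34 to 6.72 in Sucnr1-/- mice and from 6.79 to 6.99 in WT mice, without overlap between the genotypes. All 9 T cell markers (median -0.33) and all 6 B cell markers (median -0.89) were also lower in mean, with overlapping mice. Without WT mouse 3 the T cell count was 6 of 9 (median -0.13), and without WT mouse 1 the B cell median was -0.41. All 6 mesothelial markers averaged lower (median -0.19), but only 3 of 6 did so without Sucnr1-/- mouse 1. Of 6 markers of platelets and megakaryocytes, the classical site of P2RY1 and P2RY12, 5 were lower in mean (median -0.15). Of 12 adipocyte markers 11 were higher in mean (median 0.07), with list means of 12.90 to 12.97 in Sucnr1-/- mice and 12.70 to 12.95 in WT mice. The neutrophil mean overlapped between the genotypes and turned on 1 mouse. It was 7.18 in Sucnr1-/- mouse 1 and 5.09 to 5.50 in the other Sucnr1-/- mice, against 5.02 to 6.41 in WT mice. All 7 neutrophil markers averaged higher in Sucnr1-/- mice (median 0.19), but only 3 of 7 did so without that mouse (median -0.34), and 3 of the 7 were in the range of silent genes in all mice. The part of these cell types in the difference of P2ry14 was not tested.

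Immediate early genes, which respond to handling, were highest in mouse 1 of each genotype, with a list mean of 8.88 in Sucnr1-/- mouse 1 against 7.80 to 8.11 in the other Sucnr1-/- mice and 9.17 in WT mouse 1 against 8.07 to 8.37 in the other WT mice. These are the mice in which Gpr171 was highest. By genotype, 11 of 13 immediate early genes averaged lower in Sucnr1-/- mice (median -0.28), and 8 of 13 did so without WT mouse 1 (median -0.11). Markers of the epididymis were low in all mice, with list means between 4.43 and 4.67.

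The receptors were also compared between mice within each genotype, using deviations from the genotype mean (n = 8). Of the 15 pairs of receptors none passed after adjustment over the pairs (exact permutation within genotype, smallest adjusted p = 0.234), and 3 had an unadjusted p under 0.05. P2ry1 and P2ry12 varied together with r = 0.79 (exact permutation p = 0.0417) and rho = 0.88 (p = 0.0174), and r was 0.96 without the 2 mice farthest out. P2ry1 and Sucnr1 gave r = 0.77 (exact permutation p = 0.0417) and rho = 0.71 (p = 0.0764), but r was 0.39 without mouse 4 of each genotype, so this relation rested on those mice. P2ry1 and Gpr171 ran opposite, with r = -0.76 (exact permutation p = 0.0469) and rho = -0.69 (p = 0.135), and r was -0.70 without the 2 mice farthest out. P2ry1 rose with the replicate number in both genotypes, as P2ry12 did in Sucnr1-/- mice and Sucnr1 in WT mice. The permutation treats the mice of a genotype as exchangeable, and a part of the replicate order in these relations was not tested. P2ry14 and Sucnr1, the pair that separated the genotypes, gave r = 0.17 (exact permutation p = 0.684) and rho = 0.19 (p = 0.674) within genotypes, and r was 0.23 without mouse 4 of each genotype. For Sucnr1, 4 of the 8 deviations come from Sucnr1-/- mice, in which the gene is disrupted. Its SD was 0.71 in those mice and 0.48 in WT mice. The relations of Sucnr1 therefore rest in part on the signal left in Sucnr1-/- mice and cannot be read as those of the intact gene.

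The relation of each receptor with the mean of 14 marker lists was computed after the values had been seen, 84 relations in all. None passed after adjustment (exact permutation within genotype, smallest adjusted p = 0.356) and 10 had an unadjusted p under 0.05. Gpr171 ran with the macrophage mean (r = 0.92, exact permutation p = 0.00694, rho = 0.90, p = 0.0174) with r = 0.71 without mouse 1 of each genotype. With the immediate early genes Gpr171 had r = 0.88 (exact permutation p = 0.0278, rho = 0.52, p = 0.208), and r was 0.07 without those mice. P2ry12 ran opposite to the immediate early genes (r = -0.82, exact permutation p = 0.00868, rho = -0.76, p = 0.0521), with r = -0.81 without mouse 1 of each genotype. Gpr171 ran opposite to the adipocyte mean (r = -0.85, exact permutation p = 0.0243, rho = -0.67, p = 0.170), with r = -0.45 without WT mice 1 and 4. P2ry1 ran with the adipocyte mean (r = 0.83, exact permutation p = 0.0295, rho = 0.88, p = 0.0313), with r = 0.57 without WT mice 1 and 4. In WT mice both P2ry1 and the adipocyte mean rose with the replicate number. The other 5 relations were those of Gpr171 with neutrophil (r = 0.77) and B cell markers (r = 0.78), of P2ry12 with skeletal muscle (r = 0.75) and neutrophil markers (r = -0.64) and of Sucnr1 with adipocyte markers (r = 0.63). Without the 2 mice farthest out on the list, their r was -0.14, 0.11, 0.54, -0.44 and 0.48, in that order. The relation of Sucnr1 includes the signal left in Sucnr1-/- mice, in which the gene is disrupted. Of the 6 skeletal muscle markers, 3 were in the range of silent genes in all mice. P2ry14 gave r = 0.38 with the macrophage mean (exact permutation p = 0.495, rho = 0.52, p = 0.260, r = 0.83 without mouse 1 of each genotype). With the mast cell mean P2ry14 gave r = 0.47 (exact permutation p = 0.115, rho = 0.55, p = 0.175, r = 0.98 without Sucnr1-/- mice 1 and 2). None of the 14 lists reached an unadjusted p under 0.05 with P2ry14. Its r was larger in size with endothelial (-0.63, exact permutation p = 0.359), skeletal muscle (0.62, p = 0.120) and T cell markers (0.57, p = 0.200), among others. Without the 2 mice farthest out on the list these were -0.44, 0.21 and 0.78.

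**Figure D4:**
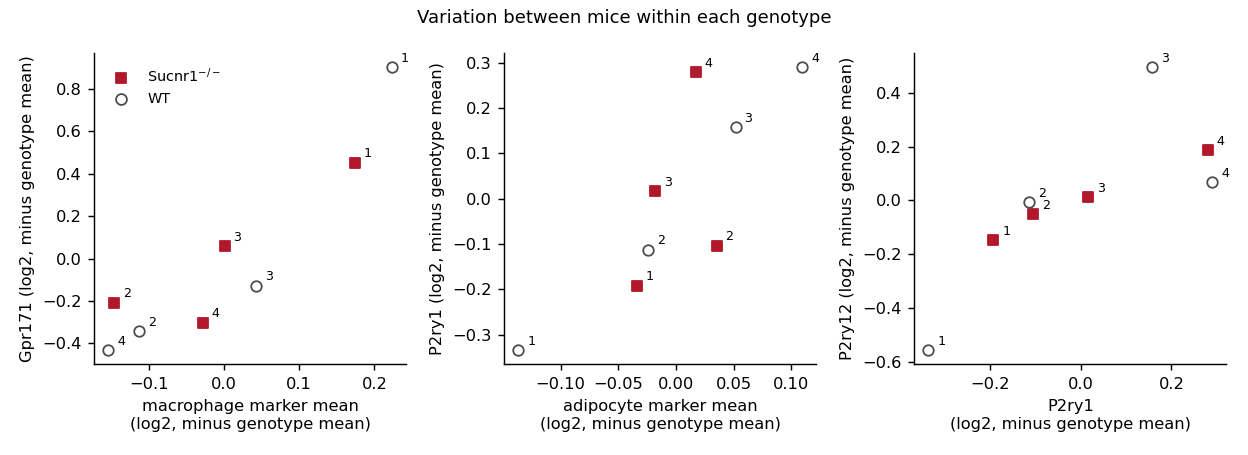
Deviations from the genotype mean (log2, both axes) for Gpr171 against the macrophage marker mean, P2ry1 against the adipocyte marker mean and P2ry12 against P2ry1, 1 point per mouse with its replicate number. Red squares are Sucnr1-/- mice and open circles WT mice. Mouse 1 of each genotype lies at the upper right in the Gpr171 panel, and WT mouse 1 is lowest in both other panels.

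The genes whose deviations from the genotype mean were most like each receptor were named as a description over the 8 mice, out of 18820 genes. They were picked for the highest r, so a high r follows from the choice and is no test of a relation. Without the 2 mice farthest out, r of the genes named here ran from 0.79 to 0.998. For P2ry14 they were Aoah (r = 0.99), Plxdc1 (r = 0.98) and Prcp (r = 0.98), which differed between the genotypes by -0.22 (SE 0.15), -0.25 (SE 0.15) and -0.18 (SE 0.13). For Gpr171 they were Cndp2 (r = 0.99), Vav1, a signalling protein of blood cells (r = 0.99), and Ifi209, an interferon-inducible gene (r = 0.99). The genes nearest to P2ry13 were Rpl3 (r = 0.99) and Rps24 (r = 0.94), which encode ribosomal proteins, and Tpt1 (r = 0.95). P2ry12 was most like Arhgap32, Zfyve1 and Isca1 (r = 0.98 each). P2ry1 was most like Nat9 (r = 0.99), Eef2k (r = 0.98) and Fam117b (r = 0.98). The genes most like Sucnr1 were Slc38a10 (r = 0.97), Ccdc102a (r = 0.96) and Sympk (r = 0.95), and these differed between the genotypes by -0.02 (SE 0.07), -0.04 (SE 0.14) and 0.12 (SE 0.07). The likeness to Sucnr1 also draws on the signal left in Sucnr1-/- mice, in which the gene is disrupted.

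**Figure D5:**
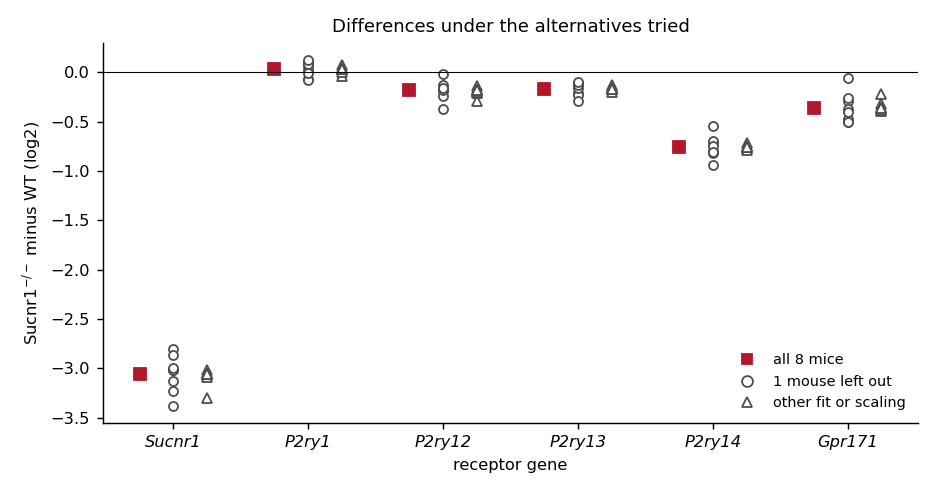
Log2 difference, Sucnr1-/- minus WT (vertical axis), of each receptor with all 8 mice (red squares), with 1 mouse left out (open circles) and under other fits or scalings (triangles). Sucnr1 stays between -3.38 and -2.81 and P2ry14 between -0.94 and -0.54, while P2ry1 falls on both sides of 0.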

How the data were processed

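RNA of 8 fat pads was hybridised to Affymetrix Mouse Gene 1.1 ST arrays. The deposited values are log2 expression per probe set that the authors obtained by robust multi-array averaging (RMA), so arrays are already background-corrected and normalized. A tool version and a genome build are not given in the sources used here. Of 35556 probe sets, 21218 had exactly 1 gene symbol, 1881 had several and 12457 were not named, which gave 18820 genes, and 18790 matched RefSeq by Entrez ID. Array medians lay between 6.28 and 6.36, arrays correlated at 0.981 to 0.993, and none were identical. The number of arrays limits the precision.

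Sucnr1-/- minus WT was fitted with limma 3.58.1 in R 4.3.3 (lmFit, eBayes) over all genes, with Benjamini-Hochberg adjustment and a threshold of 0.05. The fit was tested on simulated data. Single genes had exact permutation tests over mice, and correlations used all 576 orders within genotypes. Named genes were the 6 receptors, the other genes of the locus, up to 2 of each receptor, ligand or G protein list by smallest p and the 3 genes most like each receptor. F2r, Oxgr1, P2ry2, P2ry4, Gpr82, Gpr174, P2rx3, Entpd8 and the single cell type markers were named after their values were seen. The members and lists were chosen with earlier results of these data known. The labels name separate mice. Alternatives were array weights, the methods' t-test, a prior that depends on intensity, other scalings, a filter on dim genes, the mean of probe sets, the replicate number as a block and leaving out each mouse.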

Additional observations from a re-analysis of the deposited data

Results flagged for a closer look

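In 82 groups of 4 mice, 6 had a mouse far outside the other 3 by Dixon's test, which flags about 1 group in 20 by chance. Aadac, beside Sucnr1, was at 6.98 in WT mouse 4 and between 4.21 and 4.33 in the other WT mice. Gys2 was at 6.63 in Sucnr1-/- mouse 4 and between 7.40 and 7.54 in the other Sucnr1-/- mice. The same mouse had the highest mean of the P2X channels in its group (7.41, others 7.01 to 7.07) and of the epididymis markers (4.62, others 4.50 to 4.51). It was also the Sucnr1-/- mouse with the highest Sucnr1, P2ry1, P2ry12 and P2ry14 values and with the lowest P2ry13 and Gpr171 values. WT mouse 2 stood apart for the epididymis markers (4.67, others 4.43 to 4.46) and for the endothelial markers (10.28, others 9.74 to 9.82), and had the lowest WT value of P2ry14. All 5 measured epididymis markers were in the range of silent genes in all mice, so their differences cannot be read as a change of these markers. None of the 6 receptors was itself flagged in either genotype.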

How the results depend on the processing

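No gene passed over all genes in limma or under any of the 17 alternatives, while 1284 genes had an unadjusted p under 0.05 in limma and 1247 in the methods' t-test. Sucnr1, P2ry12, P2ry13 and P2ry14 kept their sign in all 17 alternatives and Gpr171 in all 16 that measured it, since the filter on dim genes removed it. Sucnr1 ranged from -3.38 to -2.81 with adjusted p between 0.0556 and 0.926, and P2ry14 from -0.94 to -0.54 with adjusted p between 0.354 and 0.926. P2ry1 reversed to -0.0357 with array weights and to -0.0029 with median centring, and ranged from -0.0840 to 0.124 when 1 mouse was left out, with negative values of -0.0657 without Sucnr1-/- mouse 4, -0.0840 without WT mouse 1 and -0.0102 without WT mouse 2. The cause was not tested.

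The split of genes lower and higher in Sucnr1-/- mice at an unadjusted p under 0.05 was 632 and 652, but 979 and 355 with median centring, 330 and 1352 with centring on genes (added after seeing the data) and 535 and 369 with the filter. Without Sucnr1-/- mouse 2, 368 genes were lower. The replicate numbers were not taken to pair the mice, because the labels tie them to nothing shared and same-numbered mice correlated at 0.45, 0.14, 0.11 and 0.01, with up to 0.448 between different numbers. Of 4 Sucnr1-/- mice, 2 correlated best with the WT mouse of their own number, which is a hint from the data alone. With the replicate number as a block there were 1096 lower and 809 higher genes, 0 after adjustment, and Sucnr1 stayed at -3.05 with an adjusted p of 0.167. The block changed no call of a receptor at an adjusted p under 0.05 and lowered their standard errors, that of Gpr171 to 0.121 (limma, adjusted p = 0.446). Calls of the receptors at an unadjusted p were not compared under the block. The median of the nucleotide list was -0.00131 without Sucnr1-/- mouse 4, and that of the G protein list -0.06 with median centring. The counts of all lists without each mouse were added after seeing the data. None of the 15 pairs of receptors passed in any of 10 alternatives.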
